A study of Mus musculus with 14 samples.

Results

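The genes described here encode the nuclear-coded subunits of the mitochondrial respiratory chain and of ATP synthase. They were taken from the GENCODE annotation of mouse build mm10 as the protein-coding genes on autosomes whose symbols start with Ndufa, Ndufb, Ndufc, Ndufs, Ndufv, Uqcr, Cox4, Cox5, Cox6, Cox7, Cox8 or Atp5, together with Sdha, Sdhb, Sdhc and Sdhd. This gave 91 gene models with 90 symbols, of 20807 autosomal protein-coding genes, and left out 3 X-linked genes. Of the 91, 82 encode forms that are used in most tissues, 8 encode isoforms called tissue-restricted here, and 1 is a second gene model that the annotation also calls Atp5o. The 8 include Ndufa4l2, which is known as hypoxia-inducible and not by a tissue. The symbols also bring in 10 genes with no structural place in a complex, namely Ndufaf1 to Ndufaf8, Cox7a2l and Atp5s.

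The cells were immortalised mouse embryo fibroblasts (iMEF) that carried floxed Ash2l alleles and a Cre-ER recombinase. The cells had lost exon 4 of their own Ash2l and depended on a lentiviral fusion of FKBP with human ASH2L, which the enzymes that methylate lysine 4 of histone H3 need for their activity. Individual clones were selected after the deletion, so the cells are a clonal line, and the untreated control cells carried the same deletion and the same fusion. The compound dTAG directs the fusion protein to degradation. The labels describe 12 H3K4me3 libraries, 2 replicates each from untreated cells and from cells treated with dTAG for 30 min, 2 h, 4 h, 8 h and 16 h, and 2 input libraries, 1 untreated and 1 after 16 h of dTAG. The list of H3K4me3 peaks is a union over all of these samples, with a position and no height, score or value per sample, and a second list gives putative enhancers in control cells. What follows is therefore a map of where the mark was called at any time. No change with dTAG, no replicate error and no depth could be read from it, and no difference below was tested.

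The respiratory chain passes electrons from NADH (complex I) and succinate (complex II) through complex III to oxygen at complex IV, and ATP synthase (complex V) uses the proton gradient that results. Most subunits are encoded in the nucleus and are needed in nearly every cell. Several subunits of complex IV exist in pairs of genes, with a common form and a form largely kept to heart and skeletal muscle, lung or testis. H3K4me3 marks nucleosomes around the transcription start site (TSS) of active and poised promoters, most of all those in CpG islands, stretches of DNA that keep many CpG dinucleotides. A listed peak is not a measure of expression.

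A gene was called marked when any base of a peak lay within 1 kb of one of its annotated TSSs. For distances, each gene was given 1 representative TSS, that of its best-supported transcript. Of the 91 gene models 79 were marked (86.8%), where 60.3% of all autosomal protein-coding genes were. Of the 82 common forms 79 were marked (96.3%), and of the 8 tissue-restricted isoforms 0 were. As a check of the cell type, all 11 fibroblast marker genes on a list that held Col1a1, Pdgfra and Twist1 were marked, as were 2 of 7 genes of heart and skeletal muscle (Ckm and Actn3), 1 of 5 of testis germ cells (Dazl), 2 of 4 of epithelium, 1 of 3 of endothelium, 0 of 3 of blood and 0 of 3 of neural cells. The share of marked common forms lay beside that of other gene sets used in every cell, with 76 of 79 autosomal ribosomal protein genes (96.2%) and 36 of 38 autosomal proteasome subunit genes (94.7%) marked.

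**Figure D1:**
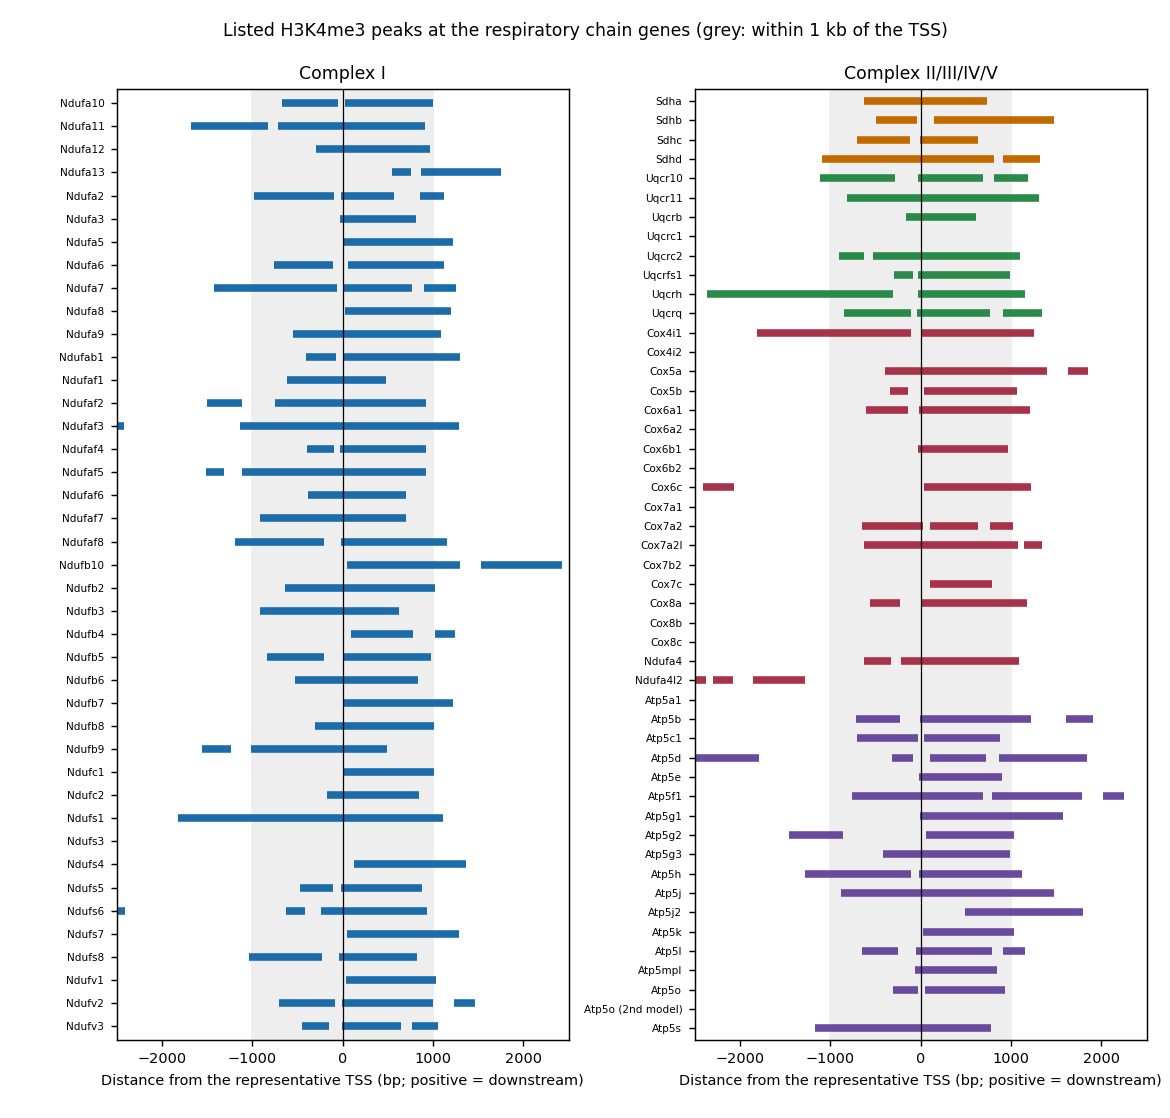
Each row is 1 of 90 gene models, and each bar is a listed H3K4me3 peak placed by its distance in bp from the representative TSS, with transcription running to the right and the 1 kb window in grey. Rows without a bar in the grey window are the 12 unmarked gene models, 8 of them tissue-restricted isoforms.

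The 8 unmarked tissue-restricted isoforms were Cox4i2 (lung and hypoxia form of subunit 4), Cox6a2, Cox7a1 and Cox8b (heart and skeletal muscle forms), Cox6b2, Cox7b2 and Cox8c (testis forms) and Ndufa4l2, a hypoxia-inducible relative of Ndufa4. Each of their common counterparts was marked. Cox4i1 had 2 peaks, the wider of 1706 bp, and the nearest peak to Cox4i2 lay 14.5 kb away. Cox6a1 had a widest peak of 1229 bp, against a nearest peak 30.6 kb from Cox6a2. Cox7a2 had 3 peaks of which the widest spanned 678 bp, and its relative Cox7a2l had a single peak of 1702 bp, while the nearest peak to Cox7a1 was 9.13 kb away. Cox8a had a widest peak of 1172 bp, and the distance to the nearest peak was 8.26 kb for Cox8b and 20.4 kb for Cox8c. Cox6b1 carried a peak of 996 bp, and Cox6b2 had none within 11.0 kb. Cox7b2 was the most isolated of the 8, with its nearest peak 109 kb away, and its common counterpart Cox7b, an X-linked gene outside the 91, had a peak of 503 bp. Ndufa4 had a widest peak of 1304 bp. Ndufa4l2 lay closest to being marked, with a peak 1.28 kb upstream. The windows of 2 kb and 3 kb counted it as marked and brought in no other isoform. The ATP synthase c subunit, which forms the rotating ring in the membrane, also has several genes, and there all 3 were marked, with widest peaks of 1584 bp at Atp5g1, 982 bp at Atp5g2 and 1407 bp at Atp5g3.

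None of the 8 tissue-restricted isoforms had a CpG island within 1 kb of a TSS, whereas 80 of the 82 common forms (97.6%) and 60.5% of all autosomal protein-coding genes did. The observed to expected CpG ratio over 1000 bp around the TSS was 0.19 to 0.47 in the 8 isoforms, with a median of 0.33, and had a median of 0.73 in the common forms. With stricter islands, over 500 bp with GC over 55% and a ratio over 0.65, 0 of the 8 isoforms and 45 of the 82 common forms (54.9%) had one, against 42.3% of all autosomal protein-coding genes. Among marked genes the order then turned, with 54.4% of the members and 64.9% of all marked genes, where the shares had been 97.5% and 90.0%. By the main definition the 2 common forms without an island were Ndufa9 and Ndufc1, accessory subunits that were marked all the same. The ranges of the ratio overlapped only through Atp5j2 at 0.22 and Atp5f1 at 0.46. Atp5j2, the f subunit, is annotated with a representative TSS 486 bp upstream of its peak. GC content did not separate them in the same way, at a median of 53.8% in the isoforms and 56.7% in the common forms. Among all autosomal protein-coding genes, 10.3% of those with an island had no peak, and 84.8% of those without an island had none. Of the members with an island 3 of 80 (3.75%) were unmarked, a smaller share, and of those without one 9 of 11 (81.8%) were.

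**Figure D2:**
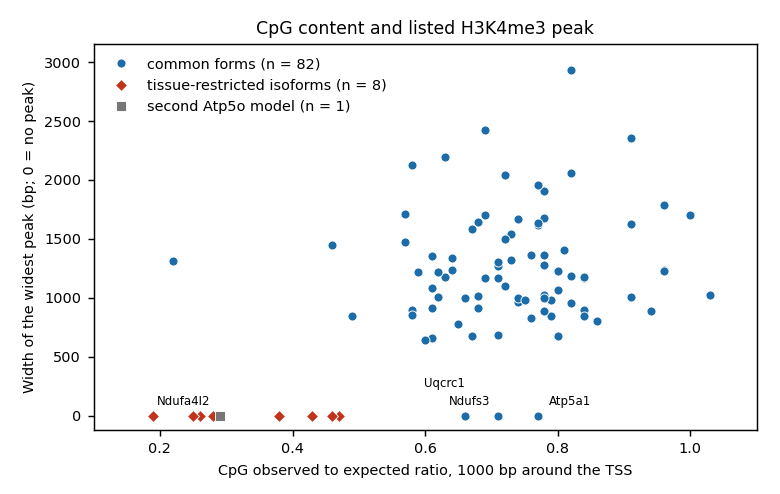
The width of the widest H3K4me3 peak in bp, set to 0 where a gene was unmarked, is plotted against the observed to expected CpG ratio in the 1000 bp around the TSS, 1 point per gene model. The 8 tissue-restricted isoforms lie at 0.47 or below with no peak, and Ndufs3, Uqcrc1 and Atp5a1 are the 3 common forms at 0.

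The stretches below show promoters of isoforms with and without a listed peak. They are from RefSeq (GRCm38.p6), 5′ to 3′ on the strand of the gene, and cover those of the 250 bases before the RefSeq start that lie in no annotated exon. They were chosen as the isoforms with a stretch of useful length in the promoter table, each beside its common form where that form is among the members. Capitals mark CpG dinucleotides.
Cox8a (common form, peaks listed, chr19:7217617-7217866, - strand): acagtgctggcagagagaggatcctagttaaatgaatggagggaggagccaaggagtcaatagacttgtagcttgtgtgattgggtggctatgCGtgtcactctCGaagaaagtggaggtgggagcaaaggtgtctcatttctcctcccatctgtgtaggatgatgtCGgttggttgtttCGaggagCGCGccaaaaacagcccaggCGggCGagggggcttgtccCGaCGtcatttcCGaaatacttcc
Cox8b (heart and skeletal muscle form, no peak, chr7:140900447-140900696, - strand): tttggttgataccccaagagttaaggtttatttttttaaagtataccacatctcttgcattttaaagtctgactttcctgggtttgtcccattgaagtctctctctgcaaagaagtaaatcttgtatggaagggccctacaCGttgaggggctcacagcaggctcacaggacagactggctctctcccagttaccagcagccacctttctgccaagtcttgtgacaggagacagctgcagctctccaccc
Cox7a2 (common form, peaks listed, chr9:79759879-79760103, - strand): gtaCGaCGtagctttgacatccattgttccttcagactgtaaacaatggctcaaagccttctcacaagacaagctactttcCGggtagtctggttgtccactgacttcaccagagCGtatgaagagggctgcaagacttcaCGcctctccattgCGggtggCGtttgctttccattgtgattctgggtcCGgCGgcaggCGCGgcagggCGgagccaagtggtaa
Cox7a1 (heart and skeletal muscle form, no peak, chr7:30183921-30184143, + strand): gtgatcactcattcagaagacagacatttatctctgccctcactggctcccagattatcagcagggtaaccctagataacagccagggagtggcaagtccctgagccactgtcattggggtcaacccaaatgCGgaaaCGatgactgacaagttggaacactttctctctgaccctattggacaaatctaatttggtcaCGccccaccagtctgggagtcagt
Cox6b1 (common form, peak listed, chr7:30626152-30626364, - strand): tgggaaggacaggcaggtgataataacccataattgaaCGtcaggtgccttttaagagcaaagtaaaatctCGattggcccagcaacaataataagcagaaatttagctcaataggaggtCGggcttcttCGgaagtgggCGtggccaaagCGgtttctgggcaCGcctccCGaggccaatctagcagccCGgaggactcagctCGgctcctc
Cox6b2 (testis form, no peak, chr7:4753095-4753225, - strand): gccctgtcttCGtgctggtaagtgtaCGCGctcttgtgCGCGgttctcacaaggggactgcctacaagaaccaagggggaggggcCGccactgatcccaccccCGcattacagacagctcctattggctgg
Cox7b2 (testis form, no peak, chr5:71548206-71548455, - strand): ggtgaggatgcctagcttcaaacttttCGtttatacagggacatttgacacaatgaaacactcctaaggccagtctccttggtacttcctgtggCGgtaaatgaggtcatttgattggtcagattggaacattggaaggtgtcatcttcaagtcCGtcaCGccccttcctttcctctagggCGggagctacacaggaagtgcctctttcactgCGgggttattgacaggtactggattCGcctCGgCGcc

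Cox8a held 11 CpGs in 250 bases and Cox8b held 1 in the same length. Cox7a2 held 12 in 225 bases, against 3 in 223 bases for Cox7a1. The testis forms did not share this sparseness in the printed stretch. Cox6b2 held 7 CpGs in 131 bases, or 5.34 per 100 bases, which was denser than its common form Cox6b1 with 10 in 213, or 4.69 per 100. Cox7b2 held 9 in 250 bases, or 3.60 per 100. Over the wider window of 1000 bp Cox6b2 had 36 CpGs and Cox7b2 had 24, against 47 at Cox6b1. The muscle forms were lower over that window, with 17 at Cox6a2, 18 at Cox8b and 19 at Cox7a1.

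The second Atp5o model had its nearest peak 3.77 kb away, and the main Atp5o model was marked. In addition 3 common forms had no listed peak. These were Ndufs3, a core subunit of the peripheral arm of complex I, Uqcrc1, core protein of complex III, and Atp5a1, the alpha subunit of the catalytic head of ATP synthase. All 3 had a CpG island at the TSS, with CpG ratios of 0.71, 0.66 and 0.77. Their nearest peaks were 50.6 kb, 5.15 kb and 185 kb away. Each lay in a stretch between peaks that also held other island genes. Ndufs3 lay in a peak-free stretch of 206 kb whose 5 coding genes, itself included, comprised Kbtbd4, which starts 84 bp from Ndufs3, and Celf1. Uqcrc1 lay in 169 kb with 6 coding genes, of which 5 had an island. Atp5a1 lay in 1324 kb with 9 coding genes, 5 of them with an island, including Haus1. The enhancer list had 0 regions in the stretches at Ndufs3 and Uqcrc1 and 31 in the stretch at Atp5a1, though 0 among the run of 5 neighbouring island genes that includes Atp5a1. Over the autosomes, 36 runs of at least 4 neighbouring island genes had no peak, with 222 genes in all, and 29 of these runs had 0 enhancers between their first and last TSS. The 3 members lay in runs of this kind with 0 enhancers. The 36 runs were mixed. Some took in genes that most cells use, such as Srsf1, Sf1 and Ppp1ca, which were named after their values were seen. Others were clustered gene families, such as runs of 8 Hoxb genes, 6 Hoxc genes and 9 Pcdhg genes. A run of 12 genes lay at the Pcdha cluster, and another of 18 held mostly genes with Gm symbols. Outside these runs peaks resumed, as at Col7a1, 16953 bp from Uqcrc1, and at Mtch2, 57672 bp from Ndufs3. Unmarked therefore means here only that no peak is listed, and what set these runs apart was not tested. For 7 of the 8 tissue-restricted isoforms, the gap between the peaks on either side held no island gene at all, and the gap at Cox7b2 held 1, Gabra2. At Cox4i2, Cox7a1, Cox8b, Cox8c and Ndufa4l2 the isoform was the only coding gene in the gap, so the lack of an island gene there adds nothing. The gaps at Cox6a2 and Cox6b2 held 7 and 2 coding genes.

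By complex, 41 of 42 genes of complex I were marked, 4 of 4 of complex II, 7 of 8 of complex III, 11 of 19 of complex IV and 16 of 18 of complex V. The low share of complex IV came wholly from its tissue-restricted isoforms, since all 11 of its common forms were marked. Ndufa4 and Ndufa4l2, whose symbols name complex I, were counted in complex IV. Within complex I, 6 of 7 core subunits, 27 of 27 accessory subunits and 8 of 8 assembly factors were marked. The complex I genes used here include all nuclear core subunits, whose membrane partners are encoded in mitochondrial DNA and were not analysed here.

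The widest peak of a marked member spanned 640 to 2935 bp, with a median of 1218 bp and quartiles of 972 and 1564 bp. Over all marked autosomal protein-coding genes the median was 1264 bp, with quartiles of 916 and 1718 bp. The members kept to the middle of that range, since 52 of 79 (65.8%) lay between those outer quartiles, as 50.1% of all marked genes did, and only 10 (12.7%) lay above the upper one. None of the 79 had a widest peak under 500 bp, and 5.72% of all marked genes did. Ribosomal protein genes, which are also used in every cell, had wider peaks, with a median of 1832 bp and quartiles of 1348 and 2252 bp, and proteasome subunit genes had a median of 1143 bp.

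**Figure D3:**
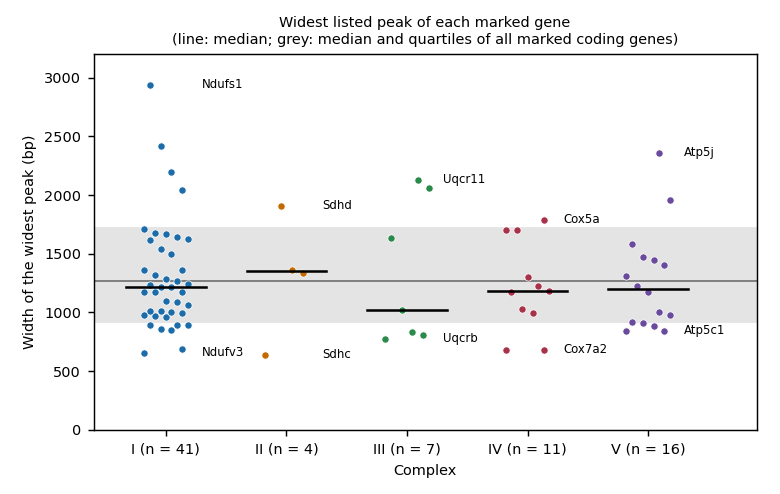
Points give the width in bp of the widest peak of each marked gene by complex, black lines are the medians of each complex, and the grey line and band are the median and quartiles of all marked autosomal protein-coding genes. The 5 medians lie within the grey band, and the widest and narrowest gene of each complex are named.

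The median of the widest peak was 1218 bp in complex I, 1350 bp in complex II, 1023 bp in complex III, 1186 bp in complex IV and 1202 bp in complex V. Each complex held both wide and narrow promoters, and the ranges of all 5 overlapped. In complex I the widest peaks were at Ndufs1, the largest iron-sulfur subunit of the NADH-binding arm, at 2935 bp (chr1:63175708-63178642), and at the assembly factor Ndufaf3 at 2423 bp. The narrowest were at Ndufv3 with 656 bp and Ndufb4 with 686 bp, both accessory subunits. Among other core subunits the widest peak spanned 855 bp at Ndufs8, 999 bp at Ndufv1, which binds NADH, 1011 bp at Ndufv2 and 1238 bp at Ndufs7.

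Complex II has only 4 subunits, whose widest peaks ran from 640 to 1908 bp. Sdha, the flavoprotein that oxidises succinate, had a peak of 1361 bp, and Sdhb, the iron-sulfur subunit, had one of 1340 bp. The membrane anchors Sdhc and Sdhd had widest peaks of 640 bp and 1908 bp, the first of which was the narrowest of all marked members. In complex III, Uqcr11 (2129 bp) and the hinge protein gene Uqcrh (2060 bp) had the widest peaks and Uqcrb (774 bp) and Uqcrq (805 bp) the narrowest. The peak of 2060 bp lay at -2362 to -303 bp from the Uqcrh TSS, on the side of the neighbouring gene Lrrc41. The peak over the Uqcrh TSS spanned 1184 bp. Uqcrfs1, the Rieske iron-sulfur protein, had a widest peak of 1023 bp, and Uqcrc2, core protein of the same complex, one of 1635 bp. In complex IV, Cox5a (1788 bp) and Cox4i1 (1706 bp) stood at one end and Cox7a2 and Cox7c (both 678 bp) at the other. The peak of 1706 bp lay at -1810 to -105 bp from the Cox4i1 TSS, on the side of the neighbouring gene Emc8. The peak downstream of the Cox4i1 TSS spanned 1253 bp. In complex V, Atp5j, the F6 subunit of the peripheral stalk, had the widest peak with 2359 bp. A start of the neighbouring gene Gabpa also lay inside that peak. Atp5s followed with 1959 bp. Atp5c1, the gamma subunit of the central stalk, had the narrowest with 842 bp, next to Atp5l with 846 bp. Atp5b, the beta subunit, had a widest peak of 1229 bp and 3 peaks.

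The width of 1 peak understates the marked length where the caller split a promoter into several. Of the 79 marked members 40 had 2 or more peaks (50.6%), where 40.4% of all marked genes did. Of these 29 had 2 peaks, 10 had 3 and Atp5d, the delta subunit, had 4. Those with 3 included Ndufa2, Ndufa7, Ndufb10, Ndufv3, Uqcr10, Uqcrq, Cox7a2, Atp5b and Atp5l. Summed over peaks, the median was 1543 bp in the members and 1519 bp in all marked genes, and large sums were found at Ndufb10 with 3869 bp and at Atp5d with 3303 bp. These sums also add peaks apart from the representative promoter. At Ndufb10 the widest peak (1709 bp) lay past the 3′ end of the gene, and a start of Rps2 lay inside 1 of its peaks. At Atp5d the widest peak (1473 bp) lay at -3265 to -1793 bp from the representative TSS. The 131 peaks at the members covered 131025 bases, of which 51.3% lay in introns, 14.6% in UTRs, 10.1% in coding exons, 15.1% in exons with no coding annotation and 8.87% between genes. No peak was shared by 2 members.

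The peaks sat mostly downstream of the TSS. In the 1 kb downstream of the representative TSS a median of 944 bp was covered, and upstream a median of 467 bp, against 899 bp and 400 bp in all marked genes. More bases were covered downstream than upstream in 68 of the 79 members (86.1%), as in 77.9% of all marked genes. Coverage reached 97.5% of members at 141 bp downstream of the TSS. Just upstream of the TSS it dropped to 43.0% of members, at 39 bp upstream, and the lowest value in that region for all marked genes was 57.2%, at 91 bp upstream.

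**Figure D4:**
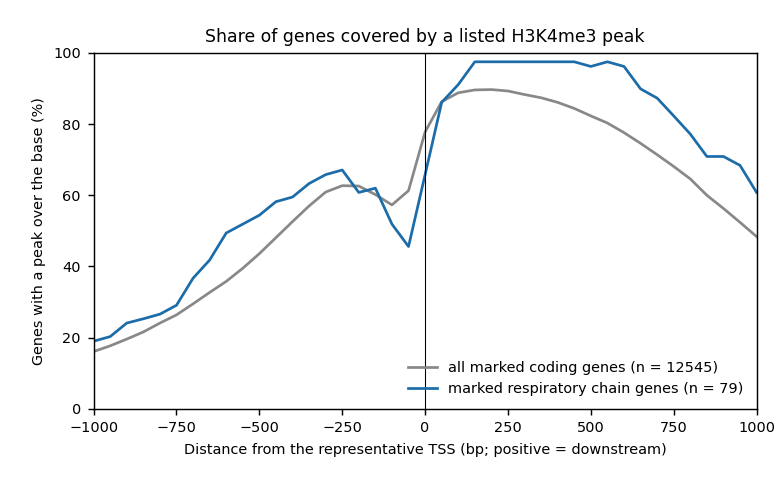
The percentage of genes with a listed peak over each position is plotted against the distance in bp from the representative TSS, for the 79 marked members and for all 12545 marked autosomal protein-coding genes. The members dip to 43.0% just upstream of the TSS and reach 97.5% downstream of it.

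At the lowest point 45 members were uncovered, 25 of them with the TSS outside every peak and 20 with the TSS inside a peak that began closer to it. In 52 of the 79 marked members (65.8%) the representative TSS lay inside a peak, as in 77.8% of all marked genes. In 13 (16.5%) it lay between an upstream and a downstream peak, against 8.55% of all marked genes, and in 14 (17.7%) all peaks lay downstream, against 7.43%. In none did all peaks lie upstream. The 13 members with the TSS between peaks were Sdhb, Cox4i1, Cox5b, Cox8a, Atp5c1, Atp5d, Atp5g2, Atp5o, Ndufa6, Ndufa7, Ndufa10, Ndufab1 and Ndufb5. The gap between their flanking peaks had a median of 163 bp, from 62 bp at Atp5c1 to 912 bp at Atp5g2, and its median in all such genes was 170 bp. Among the 14 with downstream peaks only, the peak began a median of 39.0 bp past the TSS, from 3 bp at Ndufb7 to 549 bp at Ndufa13. That group includes the core subunits Ndufs7 (45 bp) and Ndufv1 (33 bp), and Cox7c (106 bp). Ndufa13 was the member nearest to the limit of 1 kb among those marked, and Ndufa4l2, with its nearest peak 1284 bp away, was the nearest outside it.

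Many members share a promoter region with another gene. In 34 of the 79 marked members (43.0%) a TSS of another coding gene lay within 1 kb of a peak, where the share was 22.5% in all marked genes. A head-to-head partner, defined as a gene on the opposite strand whose representative TSS lay from 1 kb upstream to 200 bp downstream, was present at 23 marked members (29.1%), against 12.8% of all marked genes, and Ndufs3, which is unmarked, had one as well. Of the 23, complex I held 14, complex II 3, complex III 2, complex IV 1 and complex V 3.

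The partners carry out varied tasks, some of them in translation. The share of translation genes among the partners of all marked genes was not counted. Ndufs1 starts 3 bp from Eef1b2, which encodes a translation elongation factor, and a single peak of 2935 bp spanned both starts. Ndufa7 lies 80 bp from the ribosomal protein gene Rps28, and Ndufb5 and Ndufs6 overlap the starts of the mitochondrial ribosomal protein genes Mrpl47 and Mrpl36 by 157 bp and 29 bp. Sdhd faces Timm8b, a chaperone of mitochondrial import, at 98 bp, with a widest peak of 1908 bp. Sdha faces Ccdc127 at 29 bp, and Ndufb9 faces Tatdn1 at 26 bp. Cox4i1 faces Emc8, a subunit of a membrane protein insertase of the endoplasmic reticulum, at 101 bp. The ATP synthase genes with a partner included Atp5c1 (Kin) and Atp5h (Kctd2). A single list of positions cannot say to which gene of a pair a peak belongs, since the reads of both promoters fall together.

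Members with a partner were covered on both sides of the TSS. The median covered length upstream was 886 bp in the 23 with a partner and 332 bp in the 56 without, and downstream it was 908 bp and 960 bp. All marked genes gave the same order, with 834 bp and 348 bp upstream. The widest peak had a median of 1363 bp with a partner and 1136 bp without, and 1404 bp and 1240 bp in all marked genes. Ndufa5 and Ndufa8 departed from this, with 0 bp covered upstream although Asb15 and Morn5 begin 131 bp and 52 bp away.

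**Figure D5:**
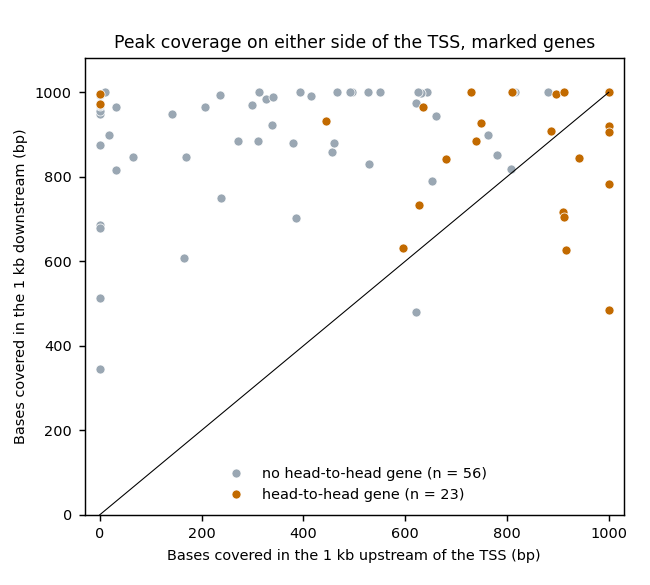
For each of the 79 marked members, the bases covered by peaks in the 1 kb downstream of the representative TSS are plotted against those in the 1 kb upstream, both in bp, with the diagonal of equal cover. The 23 members with a head-to-head gene lie mostly to the right, with a median of 886 bp upstream, and the 56 others have a median of 332 bp.

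Putative enhancers were counted up to 50 kb from each TSS. Of the 91 models 54 (59.3%) had at least 1 enhancer in this distance, where 60.6% of all autosomal protein-coding genes did, and the median was 1 in both. Among marked genes the members had fewer, with 47 of 79 (59.5%) against 74.2% and a median of 1 against 2. The nearest enhancer lay a median of 35.8 kb from the TSS in the marked members and 18.6 kb in all marked genes. No enhancer lay within 50 kb of 37 gene models, among them both Cox6a1 and Cox6b1. Of the 11 common forms of complex IV, 4 had any.

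The member with the most enhancers was Cox4i2, an unmarked isoform, with 10 within 50 kb, 1 of them inside the gene, and the nearest 2.96 kb away. Id1, an inhibitor of basic helix-loop-helix factors, starts 17922 bp from Cox4i2 and was marked, with a widest peak of 2739 bp. Atp5s followed with 7, of which 4 lay in its own gene body. Atp5c1, Ndufa13, Ndufb9 and the unmarked Ndufa4l2 had 5 each. The nearest enhancer to Ndufa4l2 was 2.04 kb away. In total 125 distinct enhancers lay within 50 kb of a member, and 2 of them overlapped a peak of a member. An enhancer within this distance may act on another gene, and its target was not measured.

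Respiratory chain promoters are known as targets of nuclear respiratory factor 1 (NRF1), of ETS factors such as GABP, of YY1, of oestrogen-related receptors (ERR) and of SP factors. The letters searched, on both strands of the 250 bases before the representative TSS, were GCATGCG for NRF1, CCGGAAG for ETS factors, ATGGCGG for YY1, AAGGTCA for ERR, GGGCGG for SP factors and TGACGTC for CREB. The NRF1 letters were present in 9 of the 91 gene models (9.89%), against 3.74% of all autosomal protein-coding genes. The ERR letters were present in 6 (6.59%) against 3.52%. For ETS the counts were 8 (8.79%) against 8.73%, and among marked genes 10.1% against 12.9%. With the 50 bases after the TSS added, the ETS letters stood at 17.6% against 11.5%, and at 20.3% against 17.2% among marked genes, so that the order turned there. The counts were for YY1 3 (3.30%) against 2.56%, for CREB 4 (4.40%) against 3.44%, and for SP 36 (39.6%) against 42.3%. Beside marked genes alone the SP letters were scarcer in the members, at 38.0% of 79 against 59.8%, while NRF1 stood at 10.1% against 5.28% and ERR at 7.59% against 2.42%. These are matches of letters, and binding was not measured.

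The gene models with the NRF1 letters were Ndufa4, Ndufa6, Ndufa11, Ndufaf4, Uqcrc2, Cox6a1, Cox8c, Atp5g2 and Atp5l, from all complexes except complex II. Of these, 8 were marked, and the exception was Cox8c. The ERR letters were found at Ndufb2, Ndufs1, Ndufs5, Uqcrq, Atp5g3 and Atp5l, all of them marked. Atp5l was alone in holding NRF1, ERR and ETS letters together. The sequences below show the exon-free part of the 250 bases before the RefSeq start at 3 of the NRF1 genes, from the same RefSeq table, with matches to the NRF1, ETS or ERR letters in capitals. They were chosen as marked genes with a long exon-free stretch.
Ndufaf4 (complex I assembly factor, chr4:24897833-24898082, + strand): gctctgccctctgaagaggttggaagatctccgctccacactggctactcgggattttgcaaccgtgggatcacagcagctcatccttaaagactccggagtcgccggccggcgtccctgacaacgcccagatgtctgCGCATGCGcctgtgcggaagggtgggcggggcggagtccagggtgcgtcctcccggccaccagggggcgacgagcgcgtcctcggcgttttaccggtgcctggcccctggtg
Ndufa6 (accessory subunit of complex I, chr15:82354323-82354541, - strand): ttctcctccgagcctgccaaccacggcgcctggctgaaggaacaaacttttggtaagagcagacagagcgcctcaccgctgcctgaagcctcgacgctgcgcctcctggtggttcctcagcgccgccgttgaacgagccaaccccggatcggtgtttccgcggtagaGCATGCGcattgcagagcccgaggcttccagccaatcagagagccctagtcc
Atp5l (g subunit of ATP synthase, chr9:44920752-44920992, - strand): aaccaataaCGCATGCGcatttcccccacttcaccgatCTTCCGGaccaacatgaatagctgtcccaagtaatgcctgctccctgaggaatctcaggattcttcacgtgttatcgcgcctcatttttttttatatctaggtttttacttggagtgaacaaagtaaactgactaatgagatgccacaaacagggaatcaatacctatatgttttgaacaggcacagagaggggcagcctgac

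In Ndufaf4 and Atp5l the letters matched on both strands at once, as an 8-base palindrome whose first base was 112 bp and 241 bp before the RefSeq start. In Ndufa6 the match began 83 bp before it. The Atp5l stretch also held the ETS letters, 212 bp before the start. The ERR letters of Atp5l do not lie wholly inside the printed stretch, which leaves out annotated exon bases. Around these promoters Ndufaf4 had a widest peak of 958 bp, Ndufa6 of 1062 bp and Atp5l of 846 bp, and the TSS of Ndufa6 lay in a gap of 163 bp between 2 peaks.

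Genes that serve the same pathway outside the 91 were counted from lists. For comparison, 60.3% of all autosomal protein-coding genes were marked. Among those with an island, as most of the listed genes had, 10.3% had no peak. The 3 X-linked subunit genes (Ndufa1, Ndufb11 and Cox7b) were all marked. Of the cytochrome genes, Cyc1, the cytochrome of complex III, had a peak of 1643 bp and Cycs, which carries electrons between complexes III and IV, had a widest peak of 1217 bp, while Cyct, the testis form of cytochrome c, was unmarked. Of 38 other assembly factors 37 were marked, with a median widest peak of 1220 bp, and the exception was Cox20, which has an island. All 11 regulators of mitochondrial genes on the list were marked, with a median of 2057 bp, among them Nrf1 (2205 bp), Gabpa (2359 bp), Tfam (1411 bp), Esrra (1460 bp) and the coactivator Ppargc1a (1204 bp). Their median lay above that of the 79 marked members (1218 bp) and of all marked genes (1264 bp), and neither difference was tested. The peak of Gabpa is the same as that of Atp5j, so it counts in the medians of both the regulators and the members.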

How the data were processed

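H3K4me3 ChIP-seq had been performed by the authors in iMEF cells. Per their methods, reads were trimmed, aligned with BWA to mm10, filtered with SAMtools, merged over replicates, and narrow peaks were called with MACS2. The deposited values are positions, of 25431 peaks in a union over all samples and of 32965 putative enhancers, defined by the authors by H3K4me1, H3K27ac and open chromatin in control cells outside promoters. The lists have 0 columns of values per sample, so the depth reached by the 14 libraries is not given in them. Replicates could not be compared here, and no test over time could be run. The authors state that they planned for a minimum number of raw reads per ChIP sample and compared the replicates. Peak starts were taken as counted from 0 (the shortest end minus start was 200) and enhancer starts as counted from 1.

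Every annotated transcript start of GENCODE M21 (GRCm38.p6) was used as a TSS, and the authors named release M25. The representative TSS was that of the transcript with the best APPRIS, CCDS and basic tags. CpG islands were called from masked sequence by scoring 17 per CpG and -1 per other base, keeping segments over 200 bp with GC over 50% and a ratio over 0.6, which gave 17105. A promoter sequence was found in the RefSeq table for 73 of the 90 symbols, and motifs were therefore searched in the genome at the representative TSS of every gene. The code ran in Python 3.11.15 with pandas 2.3.3, Numba 0.67.0, SciPy 1.17.1 and Matplotlib 3.10.9 and was tested on simulated data. Genes named are all unmarked members, the isoform pairs, the core subunits, the 2 widest and 2 narrowest peaks of each complex, members with several peaks, those with the most enhancers, and head-to-head and motif holders. Members and lists were chosen with earlier results of these data known. Intervals behind the alternatives are 95% Wilson intervals for shares and order-statistic intervals for medians. Results for some items are not reported here.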

Additional observations from a re-analysis of the deposited data

How the results depend on the processing

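No paired analysis was possible because neither table gives any library its own column. Of 30 alternative values 25 stayed within the 95% interval of the value given above. The alternatives recount the same genes, and genes are not replicates, so the interval served only as a yardstick. It was wide for small counts. The YY1 letters going from 3.30% to 8.79% and the ERR letters from 6.59% to 11.0% counted as staying within it. Merging peaks within 1 kb moved the median width from 1218 to 1669 bp, stricter islands moved the share of marked members with an island from 97.5% to 54.4%, an enhancer distance of 10 kb or 100 kb moved the share of members from 59.3% to 22.0% or 80.2%, and adding the 50 bases after the TSS moved the ETS letters from 8.79% to 17.6% of promoters (8.73% to 11.5% of all genes). The count of marked members ranged from 78 to 80 of 91 over the other windows, TSS sets and peak sizes, and to 69 of 80 with structural subunits alone. The tissue-restricted isoforms stayed at 0 of 8 under each of these except the 2 kb and 3 kb windows, which gave 1 of 8, Ndufa4l2. With 500 bp Ndufa13 was unmarked. With 1 TSS per gene Cox7a2l was unmarked, although its representative TSS lay inside a peak, so that setting used another start for it. Replicates could not be left out in turn, and the change over time was not run. Absence from the list is limited by the depth reached by the libraries, which the lists do not give.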
